A study of Homo sapiens with 12 samples.

Results

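The 10 genes described here are 3 feedback regulators of NF-kB (NFKBIA, TNFAIP3 and NFKBIZ), 3 of its subunits (NFKB1, NFKB2 and RELB) and 4 genes of the response (IRAK2, BIRC3, TNFAIP2 and ICAM1). They were taken by gene name from a given list, and all 10 were found among the 60612 genes measured. They were followed in 12 RNA sequencing libraries of human cell lines, cultured in what the labels spell "tumor-om-a-chip". The groups were HCCLM3 (labelled hepatoma cell) with LX2, HCCLM3 alone, LX2 (labelled hepatic stellate cell) with HCCLM3, and LX2 alone, with 3 libraries each. Every library carries the genotype label WT. The sources used here do not give the time in culture, the way the lines were kept apart or parted, or whether replicates were separate cultures. The p-values measure the spread among these libraries, and it may be technical.

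NF-kB is a family of transcription factors held in the cytoplasm by IkappaB proteins. Signals such as tumour necrosis factor, interleukin-1 or bacterial products lead to destruction of the inhibitor, after which the factor enters the nucleus and switches on genes of inflammation and survival. Among the genes it switches on are its own inhibitors, which makes the pathway a feedback loop. In the liver it is known for its part in inflammation, fibrosis and hepatocyte survival, and stellate cells use it in their response to injury.

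The libraries held 61836616 to 77712308 counts. HCCLM3 libraries contained KRT8, a keratin of epithelial and hepatoma cells, at 332 ± 55.0 FPKM with LX2 and 555 ± 29.2 FPKM alone (mean ± SD, n = 3 each). FPKM is fragments scaled by gene length and library size, as deposited but set to 0 where the count was 0. The fetal liver protein AFP stood at 0.856 ± 0.115 and 0.718 ± 0.15 FPKM in the same groups. Of other hepatoma and hepatocyte genes, GPC3, DLK1 and G6PC1 had 0 counts in all 6 HCCLM3 libraries, and TTR and APOA2 had at most 12 counts in any of them. LX2 libraries contained the mesenchymal filament VIM at 167 ± 15.9 FPKM with HCCLM3 and 176 ± 18.7 FPKM alone, and the stellate marker PDGFRB at 2.0 ± 0.0182 and 2.38 ± 0.181 FPKM. Of other stellate cell genes, LRAT had 0 counts in all 6 LX2 libraries, and COL1A2 and SPARC had at most 4 counts in any of them.

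RefSeq promoter sequences (GRCh38.p14) were matched by symbol for 9 of the 10 genes. Those of NFKBIA, TNFAIP3, BIRC3 and IRAK2 are shown, since the co-culture changes of these genes in LX2 had the smallest p-values of the 10 and run in both directions. Each line gives the 250 bases before the gene's start, 5′ to 3′ on the gene's strand, with matches to the kappaB consensus (the NF-kB binding motif, searched on both strands with overlaps allowed) in capitals. The intervals are chr14:35404750-35404999 on the minus strand for NFKBIA, chr6:137867009-137867258 on the plus strand for TNFAIP3, chr11:102317234-102317483 on the plus strand for BIRC3 and chr3:10164669-10164918 on the plus strand for IRAK2.
NFKBIA: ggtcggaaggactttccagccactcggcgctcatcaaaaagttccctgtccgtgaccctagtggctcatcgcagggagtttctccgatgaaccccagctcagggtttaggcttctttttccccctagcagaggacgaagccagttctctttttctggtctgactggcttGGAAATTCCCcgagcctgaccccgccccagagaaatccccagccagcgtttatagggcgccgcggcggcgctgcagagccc
TNFAIP3: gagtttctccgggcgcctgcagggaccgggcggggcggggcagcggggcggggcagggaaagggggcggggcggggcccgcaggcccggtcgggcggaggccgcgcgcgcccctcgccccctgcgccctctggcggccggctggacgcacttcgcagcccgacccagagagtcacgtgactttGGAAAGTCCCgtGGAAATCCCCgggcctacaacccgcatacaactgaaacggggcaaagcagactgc
BIRC3: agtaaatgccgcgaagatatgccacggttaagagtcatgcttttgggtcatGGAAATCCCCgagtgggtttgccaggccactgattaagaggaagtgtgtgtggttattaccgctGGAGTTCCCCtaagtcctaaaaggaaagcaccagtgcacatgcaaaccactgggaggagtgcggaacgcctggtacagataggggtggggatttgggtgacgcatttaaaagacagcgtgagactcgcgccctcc
IRAK2: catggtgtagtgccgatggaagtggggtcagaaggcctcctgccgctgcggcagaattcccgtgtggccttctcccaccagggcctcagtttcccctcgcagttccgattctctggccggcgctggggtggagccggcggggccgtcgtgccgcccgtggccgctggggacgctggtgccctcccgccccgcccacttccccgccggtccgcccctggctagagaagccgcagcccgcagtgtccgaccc

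NFKBIA held 1 match, GGAAATTCCC, 81 to 72 bases before the start. TNFAIP3 held 2 matches close together, GGAAAGTCCC at 67 to 58 and GGAAATCCCC at 55 to 46 bases before the start. BIRC3 also held GGAAATCCCC, at 199 to 190 bases before the start, and GGAGTTCCCC at 135 to 126. These letters were not found in the window of IRAK2. Of the 9 genes, 6 held a match in at least 1 window of 300 bases (250 before to 50 after a start), against 7.09% of all 27305 genes with such a window. The other matched genes were NFKBIZ (2 windows), NFKB1 (1 window) and NFKB2 (2 windows), and TNFAIP2 and ICAM1 had none. The pattern searched was GGGRNWYYCC (R is A or G, W is A or T, Y is C or T, N is any base). Only matches at every position were counted. The ICAM1 window holds TGGAAATTCC, which departs from the pattern at its first base. A match is a description of the letters, and genes with a match are found below among those that rose and among those that fell.

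All 10 genes passed the filter on low counts in each comparison. A gene is called where the Benjamini-Hochberg adjusted p of edgeR's quasi-likelihood test across all tested genes is under 0.05. In HCCLM3 with LX2, 5 of the 10 genes rose and 1 fell relative to HCCLM3 alone, where 21.7% of all 18045 tested genes were called (10.1% up and 11.6% down). In LX2 with HCCLM3, 2 rose and 6 fell relative to LX2 alone, where 31.9% of 19671 tested genes were called (15.4% up and 16.6% down). The median log2 fold change of the 10 genes was 0.64 in HCCLM3 and -0.27 in LX2, against 0.03 and 0.01 over all tested genes. A called change of at least 2-fold was found for 1 of the 10 in HCCLM3 (TNFAIP3; 6.06% of tested genes) and for 5 in LX2 (NFKBIA, TNFAIP3, NFKBIZ, IRAK2 and BIRC3; 7.59% of tested genes). In both lines, the TMM-scaled counts (counts per library, corrected for library size and composition) of 8 of the 10 genes did not overlap between co-culture and alone, against 43.1% of tested genes in HCCLM3 and 48.0% in LX2.

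**Figure D1:**
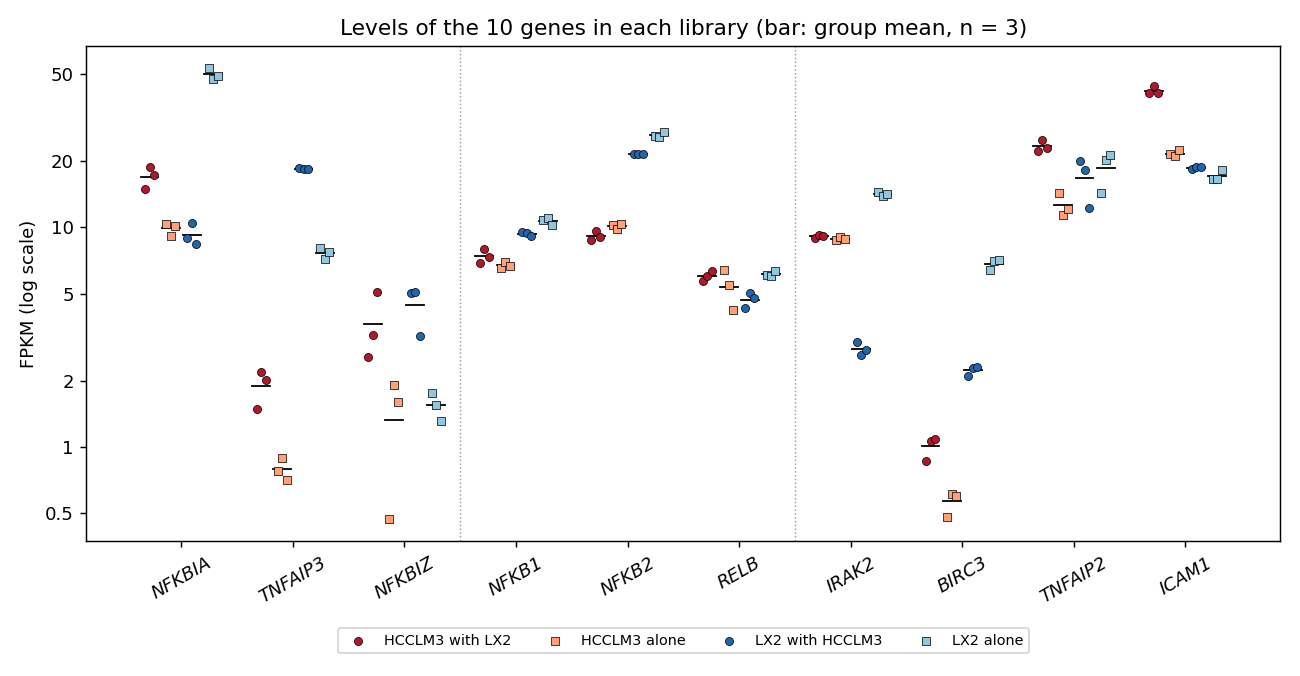
FPKM of the 10 genes (log scale) in each library, 1 point per library, with the mean of the 3 libraries of a group as a bar and dotted lines between feedback regulators, subunits and response genes. NFKBIA in LX2 lies at 8.39 to 10.5 FPKM with HCCLM3 and at 47.5 to 52.9 FPKM alone, while TNFAIP3 lies at 18.4 to 18.6 and 7.22 to 8.09 FPKM.

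NFKBIA encodes IkappaB-alpha, the inhibitor that binds NF-kB in the cytoplasm and is remade after each round of activation. The gene (ENSG00000100906) lies on chromosome 14 at 35401513 to 35404749, minus strand, in the coordinates of the deposited tables. In HCCLM3 with LX2 it had 14.9, 18.9 and 17.3 FPKM, against 10.4, 9.11 and 10.2 FPKM in HCCLM3 alone. There every co-culture library was above every library alone, and NFKBIA rose 1.53-fold (log2 fold change 0.61, SE 0.112, adjusted p = 0.0112). In LX2 with HCCLM3 it had 8.97, 10.5 and 8.39 FPKM, against 52.9, 47.5 and 48.9 FPKM in LX2 alone. The groups were far apart, and NFKBIA fell 5.46-fold in LX2 (log2 fold change -2.45, SE 0.0954, adjusted p = 1.24e-05). The changes in the 2 lines differed by 3.03 on the log2 scale (HCCLM3 minus LX2, SE 0.152, adjusted p = 5.7e-07). Whether fewer cells with NFKBIA RNA or less of it per cell gave the lower level in LX2 cannot be told apart in bulk RNA.

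TNFAIP3 encodes a ubiquitin-editing enzyme that shuts off the kinase complexes upstream of NF-kB. It lies on chromosome 6 at 137867214 to 137883312, plus strand (ENSG00000118503). HCCLM3 with LX2 had 1.49, 2.21 and 2.02 FPKM of TNFAIP3, against 0.782, 0.897 and 0.71 FPKM in HCCLM3 alone. The groups did not overlap, and TNFAIP3 rose 2.14-fold at a low level (log2 fold change 1.09, SE 0.184, adjusted p = 0.00875). LX2 with HCCLM3 had 18.6, 18.4 and 18.5 FPKM, against 8.09, 7.22 and 7.72 FPKM in LX2 alone. The libraries of each group were close together, and TNFAIP3 rose 2.36-fold in LX2 (log2 fold change 1.24, SE 0.0502, adjusted p = 1.43e-05). The difference between the changes in HCCLM3 and LX2 was -0.18 and not called (SE 0.18, adjusted p = 0.566), while limma on log2(FPKM + 1) called it (-0.48, adjusted p = 0.016).

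NFKBIZ encodes IkappaB-zeta, a nuclear member of the family that works as a cofactor at a subset of NF-kB target genes. It lies on chromosome 3 at 101827991 to 101859523, plus strand (ENSG00000144802). HCCLM3 with LX2 had 2.58, 3.23 and 5.11 FPKM of NFKBIZ, against 0.472, 1.92 and 1.6 FPKM in HCCLM3 alone. The groups did not overlap, but libraries of a group differed widely, and a log2 fold change of 1.29 (SE 0.496) missed the threshold (adjusted p = 0.112). DESeq2 called it (adjusted p = 0.0142), as did the edgeR fit over all 12 libraries (adjusted p = 0.0473). LX2 with HCCLM3 had 5.01, 5.07 and 3.22 FPKM, against 1.77, 1.56 and 1.32 FPKM in LX2 alone. NFKBIZ rose 2.79-fold in LX2, without overlap (log2 fold change 1.48, SE 0.204, adjusted p = 0.0024). The difference between the changes in HCCLM3 and LX2 was -0.23 (SE 0.593) and was not called (adjusted p = 0.883). The end of NFKBIZ shares 241 bases with NXPE3 on the same strand, a gene with up to 1535 counts in HCCLM3 and 4424 in LX2, so its counts are uncertain to the extent that reads there could be assigned to either.

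NFKBIA and TNFAIP3 rose together in HCCLM3 and went opposite ways in LX2, where TNFAIP3 and NFKBIZ rose and NFKBIA fell. The ratio of NFKBIA to TNFAIP3, from the FPKM of each library, was 10.0, 8.55 and 8.56 in HCCLM3 with LX2, against 13.3, 10.2 and 14.4 in HCCLM3 alone. The ratios with LX2 were the lower ones by a small margin, 10.0 against 10.2 at the nearest. In LX2 with HCCLM3 the ratio was 0.482, 0.571 and 0.454, against 6.54, 6.58 and 6.33 in LX2 alone. NFKBIA was the lower of the pair in all 3 LX2 libraries from co-culture and the higher in the other 9 libraries.

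**Figure D2:**
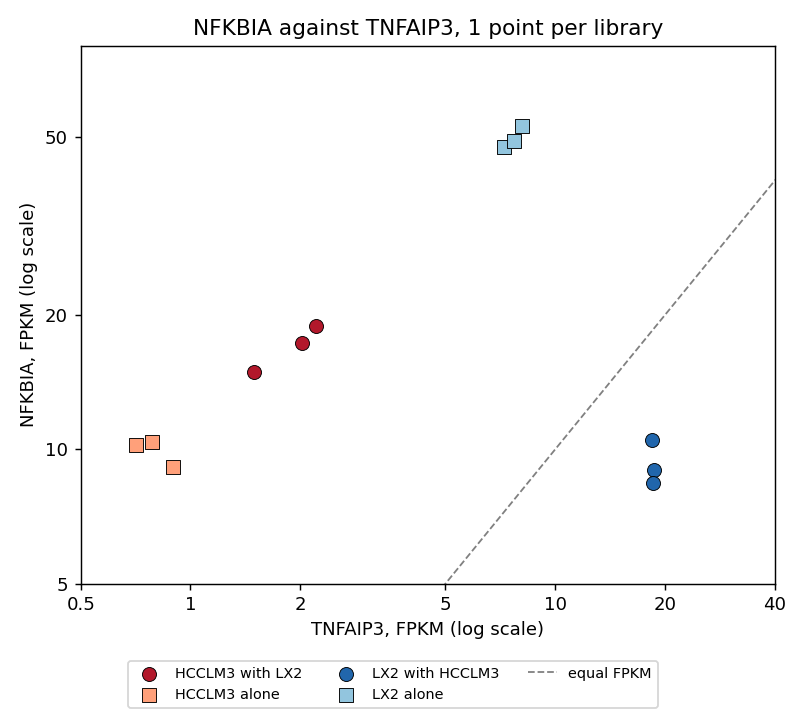
NFKBIA against TNFAIP3 in each of the 12 libraries (FPKM, log scales on both axes), with a dashed line where the 2 genes have equal FPKM. The LX2 libraries with HCCLM3 lie below the line, at ratios of 0.454 to 0.571, and the LX2 libraries alone lie above it, at 6.33 to 6.58.

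The subunits changed little. NFKB1 encodes the precursor of the subunit that pairs with RELA in the classical pathway, NFKB2 that of the subunit of the alternative pathway, and RELB the partner of the NFKB2 product. In HCCLM3, NFKB2 (chromosome 10, 102394110 to 102402524) was the subunit called, and that call was not firm. It had 8.76, 9.64 and 9.06 FPKM in HCCLM3 with LX2, against 10.3, 9.89 and 10.4 FPKM in HCCLM3 alone (log2 fold change -0.32, SE 0.0739, adjusted p = 0.0252). Without TMM scaling the log2 fold change was -0.14 (adjusted p = 0.227). The call was also lost without HCCLM3 with LX2 replicate 1 (adjusted p = 0.0803) or replicate 3 (0.0921), and without HCCLM3 alone replicate 1 (0.0626) or replicate 3 (0.0697).

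NFKB1 (chromosome 4, 102501331 to 102617302) and RELB (chromosome 19, 45001449 to 45038198) overlapped between the HCCLM3 groups. NFKB1 stood at 7.39 ± 0.537 FPKM in HCCLM3 with LX2 and 6.72 ± 0.21 FPKM in HCCLM3 alone (SD, n = 3 each), and its log2 fold change of -0.03 (adjusted p = 0.825) became 0.15 without TMM scaling. RELB stood at 6.04 ± 0.31 and 5.38 ± 1.12 FPKM in the same groups, with a log2 fold change of -0.0037 (adjusted p = 0.99) that became 0.17 without TMM scaling.

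In LX2 all 3 subunits fell with HCCLM3, each by a small amount and without overlap. NFKB1 had 9.51, 9.43 and 9.19 FPKM in LX2 with HCCLM3, against 10.8, 11.1 and 10.3 FPKM in LX2 alone (log2 fold change -0.23, SE 0.0427, adjusted p = 0.00819). NFKB2 had 21.7, 21.6 and 21.5 FPKM in LX2 with HCCLM3, against 26.0, 25.9 and 27.1 FPKM in LX2 alone (log2 fold change -0.31, SE 0.0313, adjusted p = 0.000601). RELB had 4.28, 5.04 and 4.77 FPKM in LX2 with HCCLM3, against 6.1, 5.99 and 6.37 FPKM in LX2 alone (log2 fold change -0.42, SE 0.0808, adjusted p = 0.00953). The RELB call was lost in the fit over all 12 libraries (adjusted p = 0.108). For NFKB1, NFKB2 and RELB no difference between the lines was called (adjusted p = 0.179, 0.813 and 0.235). Without TMM scaling that of NFKB1 was called (0.35, adjusted p = 0.0183), and with limma on log2(FPKM + 1) those of NFKB1 (0.3, adjusted p = 0.0137) and RELB (0.49, adjusted p = 0.0422).

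RELA, the subunit that carries most of the activating function and is not among the 10 genes, was not called in either line. It had 6.41, 8.96 and 10.9 FPKM in HCCLM3 with LX2, against 6.45, 7.65 and 6.8 FPKM in HCCLM3 alone (log2 fold change 0.16, SE 0.183, adjusted p = 0.583). In LX2 with HCCLM3 it had 7.0, 6.34 and 10.5 FPKM, against 6.77, 6.61 and 6.83 FPKM in LX2 alone (log2 fold change 0.21, SE 0.185, adjusted p = 0.447). In both lines the groups overlapped and the co-culture libraries were the more spread. The ratio of NFKBIA to RELA in FPKM, inhibitor to subunit, was 2.01 ± 0.376 in HCCLM3 with LX2 and 1.43 ± 0.218 in HCCLM3 alone (SD, n = 3 each), with overlap (1.59 to 2.32 and 1.19 to 1.61). In LX2 it was 1.25 ± 0.431 with HCCLM3 and 7.39 ± 0.367 alone, without overlap. The ratio of NFKB2 to NFKB1, which no scaling of a library can move, was 1.24 ± 0.0306 in HCCLM3 with LX2 and 1.52 ± 0.0794 in HCCLM3 alone, without overlap (1.21 to 1.27 and 1.43 to 1.58). In LX2 it was 2.3 ± 0.0321 with HCCLM3 and 2.46 ± 0.155 alone, with overlap (2.28 to 2.34 and 2.33 to 2.63).

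IRAK2 and BIRC3 changed most among the response genes, and in LX2. IRAK2 encodes a kinase-like adaptor that carries signals from interleukin-1 and Toll-like receptors, and lies on chromosome 3 at 10164919 to 10243745, plus strand (ENSG00000134070). HCCLM3 with LX2 had 9.0, 9.24 and 9.13 FPKM of IRAK2, against 8.75, 9.01 and 8.84 FPKM in HCCLM3 alone. There the log2 fold change was -0.13 (SE 0.074, adjusted p = 0.276), and it became 0.05 without TMM scaling. LX2 with HCCLM3 had 3.01, 2.64 and 2.76 FPKM, against 14.5, 13.9 and 14.2 FPKM in LX2 alone. The groups were far apart, and IRAK2 fell 5.16-fold (log2 fold change -2.37, SE 0.0663, adjusted p = 3.45e-06). The changes in HCCLM3 and LX2 differed by 2.21 (SE 0.0918, adjusted p = 2.31e-07).

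BIRC3 encodes a ubiquitin ligase of the inhibitor of apoptosis family that acts at tumour necrosis factor receptors. It lies on chromosome 11 at 102317450 to 102339403, plus strand (ENSG00000023445). HCCLM3 with LX2 had 0.867, 1.07 and 1.09 FPKM of BIRC3, against 0.484, 0.614 and 0.602 FPKM in HCCLM3 alone. BIRC3 rose 1.59-fold in HCCLM3, also at a low level (log2 fold change 0.67, SE 0.158, adjusted p = 0.0266). That call was lost without HCCLM3 with LX2 replicate 2 (adjusted p = 0.0793) or replicate 3 (0.097), and without HCCLM3 alone replicate 1 (0.0733) or replicate 3 (0.0654). LX2 with HCCLM3 had 2.12, 2.3 and 2.31 FPKM, against 6.39, 7.03 and 7.11 FPKM in LX2 alone. BIRC3 fell 3.1-fold in LX2, without overlap (log2 fold change -1.63, SE 0.0669, adjusted p = 1.49e-05). The opposite changes in HCCLM3 and LX2 differed by 2.27 (SE 0.158, adjusted p = 4.73e-06).

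ICAM1 and TNFAIP2 were called in HCCLM3 and not in LX2. ICAM1, the adhesion molecule by which leukocytes hold on to other cells, lies on chromosome 19 at 10271093 to 10285583. It had 40.9, 44.0 and 40.7 FPKM in HCCLM3 with LX2, against 21.5, 21.1 and 22.5 FPKM in HCCLM3 alone. ICAM1 rose 1.72-fold there (log2 fold change 0.78, SE 0.0662, adjusted p = 0.00102), the smallest adjusted p among the 10 genes in HCCLM3. In LX2 it had 18.4, 18.8 and 18.9 FPKM with HCCLM3, against 16.7, 16.6 and 18.2 FPKM alone (log2 fold change 0.09, SE 0.0484, adjusted p = 0.202). The changes in HCCLM3 and LX2 differed by 0.65 (SE 0.0768, adjusted p = 0.000162).

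TNFAIP2, known as a gene induced by tumour necrosis factor, lies on chromosome 14 at 103121476 to 103137439. It had 22.2, 25.0 and 22.9 FPKM in HCCLM3 with LX2, against 14.3, 11.4 and 12.1 FPKM in HCCLM3 alone. TNFAIP2 rose 1.65-fold (log2 fold change 0.72, SE 0.11, adjusted p = 0.00623). In LX2 the libraries were spread over the same range, with 20.1, 18.2 and 12.2 FPKM with HCCLM3 and 14.4, 20.3 and 21.4 FPKM alone (log2 fold change -0.18, SE 0.221, adjusted p = 0.585). The difference between HCCLM3 and LX2 was 0.87 (SE 0.268, adjusted p = 0.0419). It was called in the fits that left out replicate 1 of HCCLM3 alone, of LX2 alone or of LX2 with HCCLM3, and lost without any of the other 9 libraries (adjusted p = 0.0594 to 0.101). It was also lost with no filter on low counts (adjusted p = 0.0557).

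**Figure D3:**
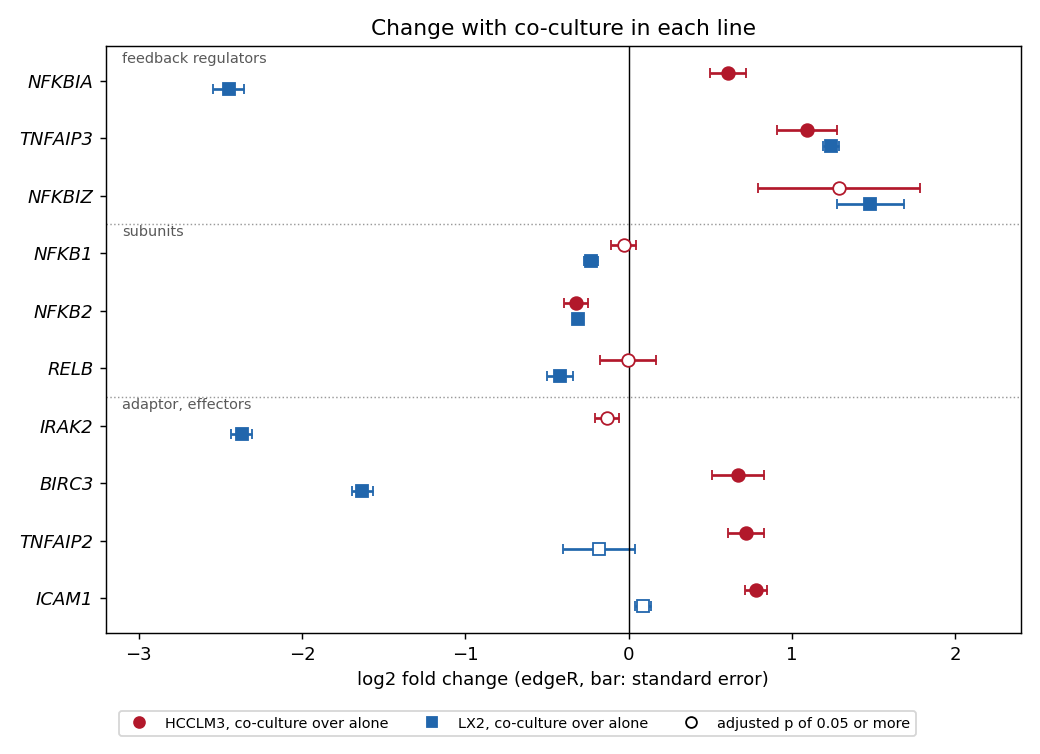
Log2 fold change of each of the 10 genes with co-culture (co-culture over alone, edgeR, bars of 1 standard error) in HCCLM3 (circles) and LX2 (squares), with open symbols for an adjusted p of 0.05 or more. NFKBIA, IRAK2 and BIRC3 lie at 0.61, -0.13 and 0.67 in HCCLM3 and at -2.45, -2.37 and -1.63 in LX2, while TNFAIP3 and NFKBIZ lie right of 0 in both lines.

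The difference between the lines was called for 5 of the 10 genes (NFKBIA, IRAK2, BIRC3, TNFAIP2 and ICAM1), each with the higher change in HCCLM3, against 20.7% of all 21959 tested genes (9.39% higher in HCCLM3 and 11.3% lower). That balance turns with the scaling, with 2063 genes higher in HCCLM3 and 2483 lower here, 2989 and 1588 without TMM scaling, and 3787 and 2327 with limma on log2(FPKM + 1). Of these, NFKBIA, IRAK2 and BIRC3 differed by at least 2-fold, against 8.61% of tested genes. By role, the median log2 fold change of the feedback regulators was 1.09 in HCCLM3 and 1.24 in LX2. That of the subunits was -0.03 and -0.31, and that of the response genes 0.7 and -0.9. In LX2 the 3 feedback regulators ranged from -2.45 to 1.48 and the response genes from -2.37 to 0.09, while the subunits stayed within -0.42 to -0.23.

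The order of the levels also differed between groups. In HCCLM3 with LX2 and in HCCLM3 alone, ICAM1 (41.8 ± 1.85 and 21.7 ± 0.686 FPKM) and TNFAIP2 (23.4 ± 1.46 and 12.6 ± 1.51 FPKM) were the highest of the 10 genes, and TNFAIP3 and BIRC3 the lowest, with TNFAIP3 overlapping NFKBIZ in HCCLM3 alone. In LX2 with HCCLM3, NFKB2 was highest at 21.6 ± 0.0958 FPKM, followed by ICAM1, TNFAIP3 and TNFAIP2, which overlapped as neighbours, and NFKBIA was the sixth at 9.28 ± 1.08 FPKM, overlapping NFKB1. In LX2 alone, NFKBIA was highest at 49.8 ± 2.77 FPKM, above NFKB2 at 26.3 ± 0.626 FPKM, without overlap. BIRC3 was the lowest in LX2 with HCCLM3 (2.25 ± 0.11 FPKM) and NFKBIZ in LX2 alone (1.55 ± 0.224 FPKM). Levels were set side by side per length, and the sources used here do not say how FPKM were scaled across the tables of the lines.

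Markers of several cell types moved with the changes in HCCLM3, and which cells these transcripts came from was not tested. Of 10 granulocyte precursor markers, 10 had a count in HCCLM3 with LX2 and 1 in HCCLM3 alone, with summed counts of 479 to 582 and 0 to 4 per library. The 12 erythroid markers summed to 6605 to 9147 counts in HCCLM3 with LX2 and 0 to 6 in HCCLM3 alone. The 23 leukocyte markers summed to 7018 to 7871 counts (23 genes with a count) and 5359 to 5591 counts (13 genes with a count), of which CD68, also found in other cells, gave 3979 to 4867 and 4164 to 4320 counts. Of 17 leukocyte markers tested, 7 rose and 0 fell. The lysozyme gene LYZ had 768, 594 and 730 counts in HCCLM3 with LX2 and 92, 61 and 97 counts in HCCLM3 alone (log2 fold change 3.03, adjusted p = 0.00102). S100A8, S100A9, LAPTM5 and IGKC also rose, with 24 to 510 counts in each library with LX2 and 0 in each library alone, and so did CD14 and ITGAM (1.07 and 1.23, adjusted p = 0.0327 and 0.0274). The defining leukocyte gene PTPRC had 23, 16 and 67 counts in HCCLM3 with LX2 and 34, 34 and 0 counts in HCCLM3 alone, and CSF1R had 8, 0 and 0 counts with LX2 and 0 in each library alone. Of 13 stellate cell and fibroblast markers tested in HCCLM3, COL3A1 rose, with 300, 848 and 1011 counts with LX2 and 58, 39 and 112 counts alone (3.3, adjusted p = 0.0106), and so did LRAT (1.58, adjusted p = 0.0196), which had 0 counts in LX2. COL1A1 had 21, 356 and 1448 counts with LX2 and 16, 20 and 541 counts alone, and COL1A2 had 0, 320 and 853 counts with LX2 and 0, 0 and 502 counts alone, so HCCLM3 alone replicate 3 stands apart from the other libraries of its group in both. Without it NFKBIA, TNFAIP3, TNFAIP2 and ICAM1 were called (adjusted p = 0.0401, 0.034, 0.0288 and 0.00733) and BIRC3 and NFKB2 were not. Of 9 hepatocyte markers tested, ALB rose, with 833, 968 and 962 counts with LX2 and 221, 156 and 118 counts alone (2.46, adjusted p = 0.00112), as did TF (2.09, adjusted p = 0.0017). Of 6 hepatoma markers tested, 1 rose, SPINK1 (1.94, adjusted p = 0.000711), and 3 fell, the keratins KRT8, KRT18 and KRT19 (-0.91, -0.59 and -0.88). AFP and EPCAM were not called. Of 4 endothelial markers tested, ESAM and KDR fell (-1.43 and -1.02, adjusted p = 0.00122 and 0.00505). The part of these transcripts in the rises of NFKBIA, TNFAIP3, BIRC3, TNFAIP2 and ICAM1 in HCCLM3 was not tested. In LX2 the leukocyte markers summed to 378 to 490 counts with HCCLM3 and 303 to 517 counts alone. Granulocyte precursor markers summed to 52 to 92 and 86 to 127 counts, and erythroid markers to 4 to 112 and 6 to 17 counts. Of 5 hepatoma markers tested in LX2, 3 rose and 1 fell. Among them KRT19 had 44, 43 and 111 counts with HCCLM3 and 0 in each library alone. Of 9 stellate cell and fibroblast markers tested in LX2, 3 rose and 4 fell. Among them COL6A3 had 160, 134 and 153 counts with HCCLM3 and 0 in each library alone. HNF4A of 4 hepatocyte markers and KDR of 4 endothelial markers rose in LX2, and 1 of each list fell. In HCCLM3 alone, KRT19 had 49740, 39650 and 38761 counts and COL6A3 had 3583, 4446 and 4232. HNF4A had 2451, 1331 and 1357 counts there and KDR had 1235, 1686 and 1182. ACTA2 and COL1A1 also rose in LX2, and had 0, 0 and 9 and 16, 20 and 541 counts in HCCLM3 alone. The source of these transcripts in LX2 was not tested.

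Transcripts of the partner line were followed by genes high in that line alone and near 0 in the other line alone. Over 41 genes with at least 20 FPKM in LX2 alone and under 0.1 FPKM in HCCLM3 alone, the median rise in HCCLM3 with LX2 was 0.102% to 0.19% of the LX2 level per library, and the largest was 1.45%. The mean rises of NFKBIA, TNFAIP3 and BIRC3 in HCCLM3 came to 14.3%, 14.5% and 6.47% of their levels in LX2 alone. Those of TNFAIP2 and ICAM1 came to 57.4% and 117%. These are FPKM without TMM scaling, by which RELB and NFKB1, not called in HCCLM3, also came to 10.7% and 6.24%. In LX2 with HCCLM3, the median over 57 genes was 0.488% to 0.614% of the HCCLM3 level, with a largest value of 3.52%. The mean rises of TNFAIP3 and NFKBIZ in LX2 came to 1360% and 216% of their levels in HCCLM3 alone. All these shares are of the partner line alone, and its level in co-culture can differ. NFKBIA in LX2 stood at 9.28 FPKM with HCCLM3 and 49.8 FPKM alone. The part of partner transcripts in the changes of the 10 genes was not tested.

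Other genes of the pathway are counted by list, beside the shares called (21.7% in HCCLM3 and 31.9% in LX2) and the medians (0.03 and 0.01) of all tested genes. The other subunits and IkappaB proteins rose in HCCLM3 and fell in LX2 where they were called. Of 6 such genes tested, 2 rose and 0 fell in HCCLM3 (median log2 fold change 0.62), and 0 rose and 3 fell in LX2 (median -0.41). BCL3, a nuclear IkappaB family protein that works as a cofactor, stood at 29.5 ± 0.694 FPKM in HCCLM3 with LX2 and 13.4 ± 1.13 FPKM in HCCLM3 alone (log2 fold change 0.97, adjusted p = 0.00122). In LX2 it stood at 9.27 ± 0.547 FPKM with HCCLM3 and 11.9 ± 0.57 FPKM alone (-0.39, adjusted p = 0.0055). NFKBID, another nuclear member, rose in HCCLM3, at 2.11 ± 0.0544 FPKM with LX2 and 0.86 ± 0.174 FPKM alone (1.12, adjusted p = 0.00655). It fell in LX2, at 0.914 ± 0.0204 FPKM with HCCLM3 and 1.53 ± 0.257 FPKM alone (-0.77, adjusted p = 0.00897). NFKBIE, a cytoplasmic inhibitor like NFKBIA, fell in LX2, at 3.86 ± 0.277 FPKM with HCCLM3 and 8.01 ± 0.0698 FPKM alone (-1.08, adjusted p = 0.000124). The changes of BCL3 and NFKBID in HCCLM3 and LX2 differed by 1.33 (adjusted p = 1.65e-05) and 1.86 (adjusted p = 0.000326). REL, a subunit known from lymphoid cells, stood at 0.174 ± 0.199 FPKM in HCCLM3 with LX2 and 0.0383 ± 0.033 FPKM in HCCLM3 alone and was not called in either line (adjusted p = 0.195 and 0.419).

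Of 22 other negative regulators, 4 of 22 tested rose and 4 fell in HCCLM3 (median log2 fold change -0.11), and 3 of 20 tested rose and 2 fell in LX2 (median -0.09). SOCS3, an inhibitor of cytokine receptor signalling, rose in both lines. Its mean was 21.6 ± 0.348 FPKM in HCCLM3 with LX2 and 9.06 ± 0.244 FPKM in HCCLM3 alone (1.08, adjusted p = 0.000547), and 19.6 ± 0.917 FPKM in LX2 with HCCLM3 and 10.2 ± 0.402 FPKM in LX2 alone (0.91, adjusted p = 7.71e-05). ZC3H12A, a nuclease that cuts inflammatory messenger RNAs, rose in HCCLM3 (1.16, adjusted p = 0.00122), where TAX1BP1, an adaptor that works with the TNFAIP3 product, fell (-0.62, adjusted p = 0.00227). In LX2, CYLD, a deubiquitinase of the pathway, fell (-0.51, adjusted p = 0.00543), as did NLRC5, a regulator of antigen presentation genes (-1.12, adjusted p = 6.66e-05).

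Among 25 kinases and adaptors tested in each line, 2 rose and 4 fell in HCCLM3 (median -0.0042) and 1 rose and 4 fell in LX2 (median -0.04). IRAK1, a kinase that acts beside IRAK2, fell in both lines. Its mean was 162 ± 9.37 FPKM in HCCLM3 with LX2 and 246 ± 8.89 FPKM in HCCLM3 alone (-0.77, adjusted p = 0.00121), and 73.9 ± 5.03 FPKM in LX2 with HCCLM3 and 97.4 ± 0.555 FPKM in LX2 alone (-0.43, adjusted p = 0.00107). IKBKG, the regulatory subunit of the IkappaB kinase, fell in HCCLM3 (-0.84, adjusted p = 0.0024), and MAP3K8, a kinase bound by the NFKB1 precursor, rose there (0.88, adjusted p = 0.00353). In LX2, IKBKE, a kinase related to the IkappaB kinases, fell (-0.49, adjusted p = 0.0183) and TRAF5, an adaptor of tumour necrosis factor receptors, rose (0.35, adjusted p = 0.00761).

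Ligands that start the pathway were mostly rare. TNF had 0 counts in all 6 HCCLM3 libraries, and 4, 0 and 0 counts in LX2 with HCCLM3 against 4, 0 and 12 counts in LX2 alone. Low counts pile up at 4 and 8, so a count may not equal 1 sequenced fragment, and no upper limit was set on a level with 0 counts. IL1B had 123, 181 and 120 counts in HCCLM3 with LX2 against 87, 155 and 116 in HCCLM3 alone, and 40, 40 and 44 counts in LX2 with HCCLM3 against 64, 8 and 46 in LX2 alone, with no call in either line (adjusted p = 0.656 and 0.989). Of 6 ligands tested in HCCLM3, 0 rose and 1 fell, IL18 (4.09 ± 0.243 FPKM with LX2 and 8.94 ± 0.854 FPKM alone; -1.29, adjusted p = 0.00107). Of 8 tested in LX2, 1 rose, IL18 (6.99 ± 0.697 FPKM with HCCLM3 and 4.92 ± 0.343 FPKM alone; 0.48, adjusted p = 0.0123), and 1 fell. That gene was TNFSF15, a ligand of the tumour necrosis factor family, at 0.347 ± 0.0605 FPKM in LX2 with HCCLM3 and 9.66 ± 0.335 FPKM in LX2 alone (-4.82, adjusted p = 3.43e-06). The ligands with the next smallest p were not called, namely TNFSF15 and IL1A in HCCLM3 (adjusted p = 0.145 and 0.324) and IL33 in LX2 (adjusted p = 0.0617).

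Among receptors, counted together with the receptor antagonist IL1RN, 2 of 15 tested rose and 2 fell in HCCLM3 (median 0.02), and 6 of 14 tested rose and 2 fell in LX2 (median 0.19). IL1RN fell in HCCLM3 (-1.36, adjusted p = 0.0136) and was not called in LX2 (adjusted p = 0.781). TNFRSF14, a receptor of the tumour necrosis factor receptor family, rose in both lines, with 1100, 1017 and 1038 counts in HCCLM3 with LX2 and 420, 328 and 430 counts in HCCLM3 alone (1.39, adjusted p = 0.00286), and with 638, 867 and 944 counts in LX2 with HCCLM3 and 153, 243 and 250 counts in LX2 alone (1.81, adjusted p = 0.00179). IL1RAP, the shared chain of the interleukin-1 receptor, rose in both, at 0.704 ± 0.0599 FPKM in HCCLM3 with LX2 and 0.289 ± 0.063 FPKM in HCCLM3 alone (1.11, adjusted p = 0.00793), and at 1.94 ± 0.0398 FPKM in LX2 with HCCLM3 and 0.995 ± 0.0432 FPKM in LX2 alone (0.93, adjusted p = 0.000121). The decoy receptor IL1R2 fell in HCCLM3 (-0.62, adjusted p = 0.0111), at 4.13 ± 0.225 FPKM with LX2 and 5.68 ± 0.427 FPKM alone, and rose in LX2 (adjusted p = 0.0332), where it had 30, 27 and 14 counts with HCCLM3 and 4, 0 and 0 counts alone. HCCLM3 with LX2 held 951, 953 and 1033 counts of IL1R2. Whether the IL1R2 counts in LX2 came from LX2 cells was not tested. In LX2, IL1R1, the signalling chain, rose (2.01, adjusted p = 0.0013) at 0.437 ± 0.0217 FPKM with HCCLM3 and 0.106 ± 0.0315 FPKM alone. TLR4, the receptor for bacterial lipopolysaccharide, fell there (-0.84, adjusted p = 8e-05), at 3.04 ± 0.108 FPKM with HCCLM3 and 5.34 ± 0.256 FPKM alone.

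Other target genes gave the most calls. In HCCLM3, 14 of 34 tested rose and 4 fell (median log2 fold change 0.51), and in LX2, 8 of 32 tested rose and 15 fell (median -0.51). In HCCLM3, the iron-scavenging LCN2 stood at 46.2 ± 1.86 FPKM with LX2 and 2.64 ± 0.548 FPKM alone, and the neutrophil chemokine CXCL2 at 3.82 ± 0.768 and 0.794 ± 0.0177 FPKM (adjusted p = 0.000157 and 0.00142). CXCL5, another such chemokine, rose in HCCLM3 (0.89, adjusted p = 0.0017), at 57.0 ± 2.61 FPKM with LX2 and 27.4 ± 2.79 FPKM alone. It also rose in LX2 (adjusted p = 0.00027), with 138, 193 and 176 counts with HCCLM3 and 0 counts in each library alone. At 27.4 FPKM in HCCLM3 alone and 0 counts in LX2 alone, CXCL5 meets the rule for the partner transcripts above. HCCLM3 with LX2 had 11425, 10797 and 11074 counts of it. Whether the CXCL5 counts in LX2 came from LX2 cells was not tested. In LX2, PTGS2, the inducible cyclooxygenase, fell (-1.59, adjusted p = 1.62e-06), at 7.78 ± 0.00828 FPKM with HCCLM3 and 23.0 ± 0.652 FPKM alone. The complement protein C3 fell as well (-3.6, adjusted p = 3.87e-06), at 1.53 ± 0.204 and 18.2 ± 0.215 FPKM, while PTGES, which makes prostaglandin from the product of PTGS2, rose (0.79, adjusted p = 5.35e-06), at 198 ± 4.05 and 112 ± 1.16 FPKM. The markers of several cell types given above moved with the rises in HCCLM3, and their part in them was not tested.

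**Figure D4:**
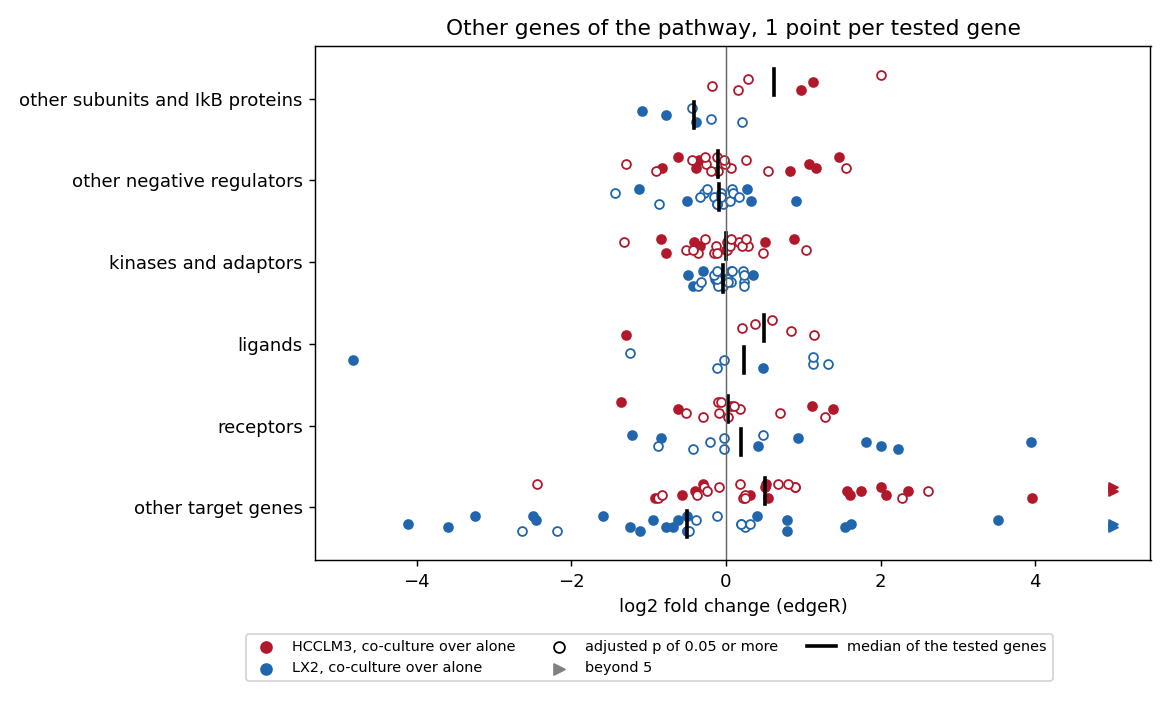
Log2 fold change with co-culture (co-culture over alone, edgeR) of the other pathway genes by list, 1 point per tested gene, for HCCLM3 (upper row of each list) and LX2 (lower row), with open points for an adjusted p of 0.05 or more, black bars at the median and triangles for values beyond 5. Medians of the other target genes lie at 0.51 in HCCLM3 and -0.51 in LX2, and those of the kinases and adaptors at -0.0042 and -0.04.

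Genes with the pattern most like that of NFKBIA were sought by Pearson correlation of log2 CPM over the 6 libraries of a line, which share the grouping into co-culture and alone. In HCCLM3, of 6126 genes, these were SELENOM (r = 0.9965; 10.7 FPKM with LX2 and 5.06 FPKM alone), CLSTN1 (r = 0.9938; 31.7 and 23.8 FPKM) and GSTA4 (r = 0.9909; 9.48 and 5.51 FPKM). In LX2, of 6869 genes, they were ZNFX1 (r = 0.9996; 7.77 FPKM with HCCLM3 and 12.4 FPKM alone), PINK1 (r = 0.9995; 18.2 and 39.7 FPKM) and SH2D4A (r = 0.9994; 14.1 and 18.8 FPKM). No gene was named in both lines.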

How the data were processed

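RNA sequencing of 12 libraries (4 groups of 3) was used, grouped by the titles and by the treatment and cell line labels. Polyadenylated RNA was sequenced from both ends, per the labels' protocols, which name adipose RNA, found in neither line. Bowtie 0.12.2, HISAT2 2.0, StringTie 1.3.0 and the mouse build mm8 stand in the submitters' processing notes. The IDs are human, and 90.5% of the 58394 found in GENCODE 29 share chromosome and start or end with it, so coordinates were taken as GRCh38. Raw counts per gene were deposited per library, in a table of 60612 genes for HCCLM3 and 32507 for LX2, beside the authors' FPKM, per the file headers. Low counts pile up at 4 (6919 values, against 2239 at 3 and 1368 at 5, in the HCCLM3 table) and at 8, so a count may not equal 1 sequenced fragment, and depth in fragments is unknown. The sources used here do not say whether counting used strand. TNFAIP3, BIRC3, TNFAIP2 and ICAM1 overlap genes on the opposite strand with at most 231 counts.

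Counts were tested with edgeR 4.0.16 (R 4.3.3) by the quasi-likelihood test, two-sided, after filterByExpr (minimum count 10, minimum total 15) and TMM scaling, in a fit per line, with Benjamini-Hochberg adjustment over all tested genes. The difference between lines was fitted over all 12 libraries, with a gene absent from the LX2 table set to 0. FPKM, which are not TMM-scaled, describe levels, and were set to 0 wherever the count was 0. In HCCLM3 the median log2 fold change of all genes was 0.03, and 0.21 without TMM scaling, and changes are reported relative to the TMM scale. Counts were simulated with 200 genes changed, each with a mean over 100 counts. The HCCLM3 fit (18045 genes) called 1.49% of those changed 1.5-fold, 41.8% at 2-fold and 89.4% at 4-fold. The LX2 fit (19671 genes) called 29.9%, 73.1% and 98.5%, and the test between lines (21959 genes) 0.0%, 40.3% and 65.2%. In the data far more genes were called (3924 in HCCLM3), and the adjustment is stricter where few genes change. The simulated shares may therefore be too low for the data. A gene not called may still hold a change of such a size. Alternatives were no TMM, DESeq2 1.42.0, no filter, limma 3.58.1 on log2(FPKM + 1) and log2(FPKM + 0.1), a replicate block, 1 fit over all 12 libraries and leaving out each library.

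The members and the lists of other pathway genes and markers were chosen with earlier results of these data known. Named genes are the 10 members, RELA, and up to 3 genes per pathway list and line with the smallest p. IL1R2 and CXCL5, near 0 counts in LX2 alone, are given no fold change there. TNF and IL1B lie outside this rule and were chosen after their values were seen. Promoter sequences are from RefSeq, GRCh38.p14.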

Additional observations from a re-analysis of the deposited data

Results flagged for a closer look

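By the test of the difference itself (HCCLM3 minus LX2, log2, edgeR adjusted p under 0.05), 20.7% of all 21959 tested genes were called. Most named genes outside the 10 were picked for the smallest p within a line, so the number called among them is not a share of the pathway. The co-culture change differed between the lines by this test for 22 of the genes named here with counts in all groups. It differed also for CXCL5 and IL1R2, the higher change being in LX2, where both were near 0 counts alone and no size is given. Of the 10 NF-kB genes these were NFKBIA (3.03), BIRC3 (2.27), IRAK2 (2.21), TNFAIP2 (0.87) and ICAM1 (0.65). Of the IkappaB proteins and negative regulators they were NFKBID (1.86, adjusted p = 0.000326), NLRC5 (1.63), ZC3H12A (1.37), BCL3 (1.33, adjusted p = 1.65e-05), NFKBIE (1.32) and TAX1BP1 (-0.74). Of the kinases they were MAP3K8 (1.15), IKBKE (0.63), IRAK1 (-0.37) and IKBKG (-1.09). Of ligands, receptors and other targets they were C3 (6.19), TNFSF15 (5.92), PTGS2 (3.13), CXCL2 (1.25), TLR4 (0.87), PTGES (-1.2) and IL18 (-1.8). Positive values mean the higher change in HCCLM3. Whether the LX2 counts of CXCL5 and IL1R2 came from LX2 cells was not tested. Groups of 3 libraries are too small for a test of single outlying libraries.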

How the results depend on the processing

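Of 440 alternative values for the 10 genes, 387 kept their direction and their side of the threshold, 24 lost a call, 8 gained it and 21 changed sign, each of these 21 from an uncalled value. In LX2, 8 genes were called under every alternative except 7 in the fit over all 12 libraries. Leaving out 1 library gave 1918 to 2928 called genes in HCCLM3 (3924 with all libraries), and 1 fit over all 12 libraries gave 3746 in LX2 (6281 in its own fit). With limma on log2(FPKM + 1), 8 of the 10 genes differed between the lines (7 higher in HCCLM3, 1 lower) in place of 5, with TNFAIP3 (adjusted p = 0.016), NFKB1 (0.0137) and RELB (0.0422) added. The same setting gave 3104 genes up and 1106 down in HCCLM3, against 1829 and 2095. In HCCLM3, sign changes without TMM, with limma and a pseudocount of 1, and with 0.1 were those of NFKB1 (0.15, 0.12, 0.13), RELB (0.17, 0.16, 0.18) and IRAK2 (0.05, 0.04, 0.04), and for the difference NFKB2 (0.14, 0.14, 0.13). The difference of TNFAIP3 was 0.0021 without TMM and that of NFKBIZ 0.08 with limma and 0.1. The causes were not tested. Leaving out 1 library moved NFKB1 (-0.07 to 0.0085) and RELB (-0.17 to 0.16) in HCCLM3, TNFAIP2 in LX2 (-0.34 to 0.0028) and the difference of NFKBIZ (-0.62 to 0.13) across 0. Without the filter the TNFAIP2 difference was lost (adjusted p = 0.0557).

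The main fits did not pair libraries by replicate number. In HCCLM3, deviations of same-numbered libraries correlated weakly, at 0.0171, 0.0452 and 0.0225, but each was best with its own number. In LX2 they correlated at -0.039, 0.0115 and -0.0408, and no same-numbered pair was the best match both ways. With a replicate block, 3315, 4795 and 4439 genes were called in HCCLM3, in LX2 and for the difference, and 5, 8 and 4 of the 10 genes. With the block, RELB in HCCLM3 was at 0.02, and NFKB2 in HCCLM3 (adjusted p = 0.0532) and the TNFAIP2 difference (adjusted p = 0.108) were not called.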
